A study of Drosophila melanogaster with 9 samples.

Results

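Eye-antennal discs of late L2 larvae (72h after egg laying, AEL) and late L3 larvae (120h AEL) were compared directly, so that each value below is the net change between these larval stages. The comparison used 6 of the 9 libraries, 3 per stage, each a pool of discs dissected from wildtype *D. melanogaster* (OregonR) larvae that had received no special treatment. A 72h AEL library held 120 to 130 discs from larvae of both sexes, and a 120h AEL library held 40 to 50 discs from female larvae. The labels also mark the 120h AEL libraries, and not those of 72h AEL, as a reanalysis of another deposited record. Stage, sex of the larvae and that label therefore change together between the groups, and what belongs to each cannot be told apart. Values are read counts per gene on the longest coding sequence, given here as CPM, the count relative to a common library size after scaling with edgeR's TMM method.

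The eye-antennal disc is an epithelial sac in the larval head from which the compound eye forms, together with the ocelli, the antenna, the maxillary palp and much of the head capsule. In the eye field, a group of nuclear proteins known as the retinal determination network gives cells their eye identity while the disc grows. During the third instar the morphogenetic furrow, a front of cell shape change driven by Hedgehog and Dpp signalling, then sweeps from posterior to anterior. Behind it the R8 photoreceptor is founded by Atonal, the remaining photoreceptors are recruited through EGF receptor and Sevenless signalling, and glia migrate in from the optic stalk.

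Total counts ranged from 17675472 (120h AEL replicate B) to 35818587 (72h AEL replicate B), and 3 counts, taken as the floor of detection, corresponded to 0.0867 to 0.15 CPM, which covers counting error only. Replicates A and B of 72h AEL differed by no more than sampling noise (a chi-square of 1.02 per gene, taken over 10235 genes), while the remaining pairs of 1 stage had values of 36.2 to 488. They were summed and counted as 1 sample, which left n = 2 at 72h AEL and n = 3 at 120h AEL. Replicate C of 72h AEL carried far fewer counts of larval midgut enzymes than A and B (summed CPM of the midgut list 255 against 24000 in A and in B). Replicate B of 120h AEL had the lowest summed CPM of fat body genes (165 against 4460 and 5090) and of hemocyte genes (869 against 3050 and 3310). Library composition moved with coding length. Spearman's rho across the 9125 genes tested, between coding length and a library's deviation from the average level, was −0.45, −0.45 and −0.21 for 72h AEL A, B and C and 0.51, 0.19 and 0.45 for 120h AEL A, B and C. The defining genes of the labelled tissue, *ey*, *so*, *eya* and the antennal selector *Dll*, had counts in every library.

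Of 9125 genes that passed the filter on low counts, 2187 were higher and 2641 were lower at 120h AEL at an adjusted p-value under 0.05 (edgeR's quasi-likelihood test, two-sided, Benjamini-Hochberg). These calls are 24.0% and 28.9% of the genes tested, 52.9% together, and they are the background against which every list below is read. With a change of more than 2-fold, 3380 genes (37.0%) were called, of which 1413 (15.5%) rose and 1967 (21.6%) fell. The falls reached further: 707 genes fell more than 32-fold and 77 rose by as much. The libraries of the stages did not overlap for 6697 genes (73.4%), with 3264 (35.8%) higher and 3433 (37.6%) lower at 120h AEL. Under TMM the tested genes had a median log2 change of 0.00. Scaling by total counts instead moved that median to 0.58 and turned the split into 4086 higher and 1668 lower genes, so a fold change here is relative to the median gene. Among the late libraries, the count of calls depended most on replicates A and C: it was 2879 without A, 2517 without C and 4989 without B. Leaving out 72h AEL replicate A or B keeps its near-duplicate, and leaving out C leaves 1 early sample. The counts of 4830 without A and 4814 without B therefore cannot show how far the calls rest on the early samples.

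**Figure D1:**
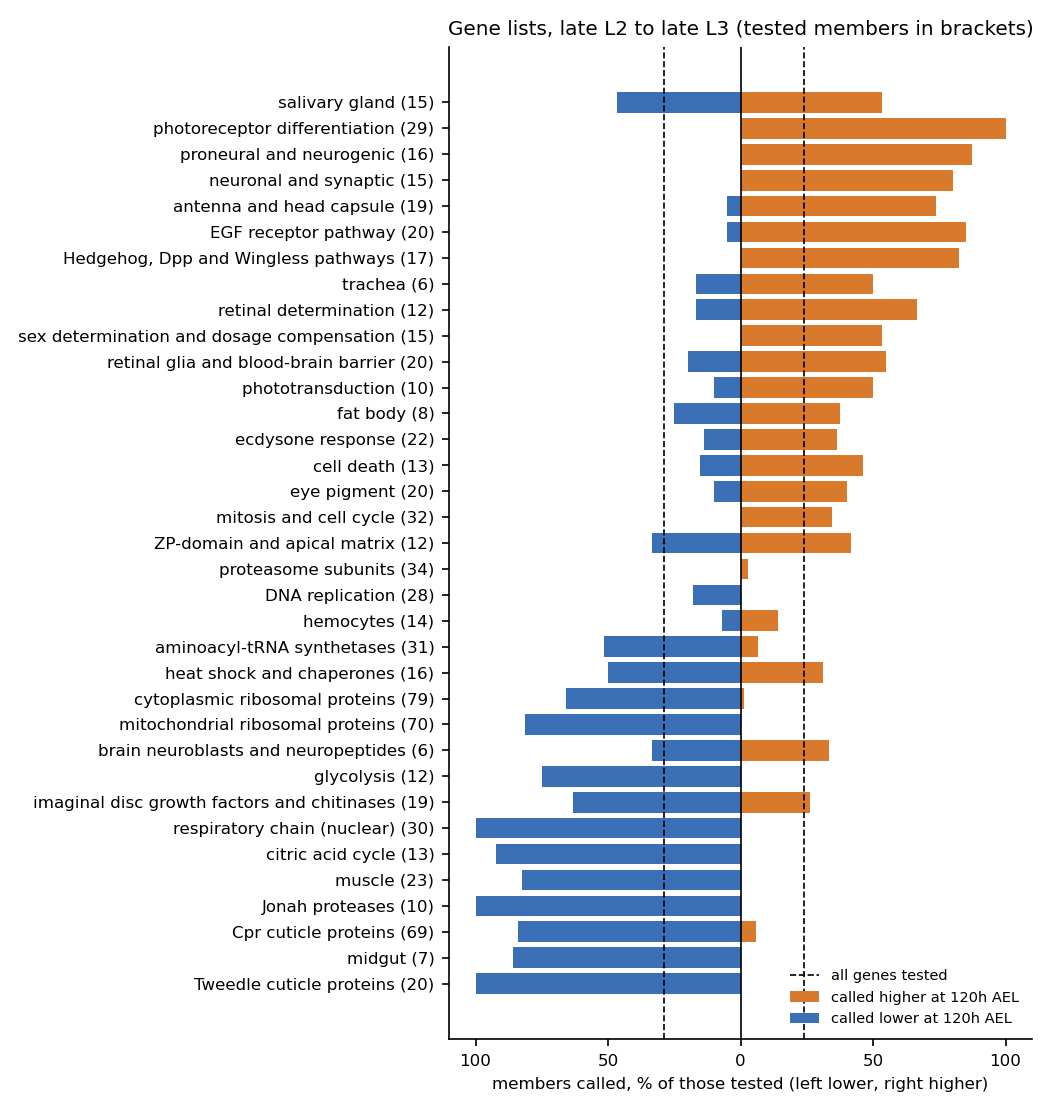
Share of the tested members of each gene list that were called higher (right, orange) or lower (left, blue) at 120h AEL, in percent, with the number of tested members in brackets and the lists ordered by median log2 fold change. Dashed lines mark the shares over all 9125 genes tested (24.0% higher, 28.9% lower), and all 29 photoreceptor genes lie on the right while all 30 nuclear respiratory chain genes lie on the left.

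The retinal determination genes were already expressed at 72h AEL, and most were moderately higher at 120h AEL. Of 12 genes, 8 rose and 2 fell, with a median log2 fold change of 1.0. *eya* (BDGP6 2L, 6527447 to 6546976), which encodes the Eyes absent phosphatase and coactivator, had 145, 143 and 117 CPM in 72h AEL A, B and C and 353, 379 and 370 in 120h AEL A, B and C. Every late library lay above every early one, with a log2 fold change of 1.49 ± 0.18 (SE, adjusted p = 0.00298). *dac*, another nuclear factor of the network, went from 51.7, 53.2 and 73.2 to 273, 177 and 265 CPM, again without overlap (1.92 ± 0.29, adjusted p = 0.00556). The homeobox gene *so* rose by little, from 68.4, 67.3 and 70.8 to 92.6, 94.6 and 97.8 CPM (0.46 ± 0.12, adjusted p = 0.029), and this call was lost without 72h AEL replicate C (adjusted p = 0.0726) or 120h AEL replicate A (0.0906) or C (0.132). *hth*, a homeobox gene that keeps anterior cells in a progenitor state and is also needed in the antenna and head capsule, changed most. Its level was 12.5, 11.5 and 27.3 CPM at 72h AEL and 127, 94.1 and 126 CPM at 120h AEL, a log2 fold change of 2.56 ± 0.41 (adjusted p = 0.00674). Its partner *exd* rose by 0.95 ± 0.30, and the zinc finger gene *tio* by 1.25 ± 0.35, which was not called without any single library of 120h AEL (adjusted p = 0.0554 to 0.097), whereas the related *tsh* had 46 to 67.3 CPM early and 64.1 to 86 CPM late, with overlapping libraries and no call.

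The Pax6 genes at the top of the network moved apart. *toy* rose from 116, 118 and 155 to 296, 291 and 278 CPM (log2 fold change 1.08 ± 0.19, adjusted p = 0.00886). *ey* had 189, 186 and 172 CPM in the early libraries and 127, 142 and 126 CPM in the late ones. The early libraries were all above the late ones, but the call was a narrow one (−0.45 ± 0.15, adjusted p = 0.0493), and with scaling by total counts the direction flipped to 0.14. It was lost without 72h AEL replicate A (adjusted p = 0.0508) or C (0.0734) and without 120h AEL replicate A (0.169) or C (0.203). *Optix*, a homeobox gene related to *so* and active ahead of the furrow, fell from 136, 139 and 108 to 68.6, 77.2 and 85.9 CPM (−0.66 ± 0.18, adjusted p = 0.0289), and only by 0.06 with total counts. The call of *Optix* was lost without any single library of 120h AEL (adjusted p = 0.055 to 0.0995). Of the whole list, 5 genes were called higher and none lower without 120h AEL replicate A, and the same counts were found without C. The Pax genes *eyg* and *toe*, which promote growth of the eye field, had log2 fold changes of 1.04 ± 0.16 (called) and 0.67 ± 0.26 (not called).

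**Figure D2:**
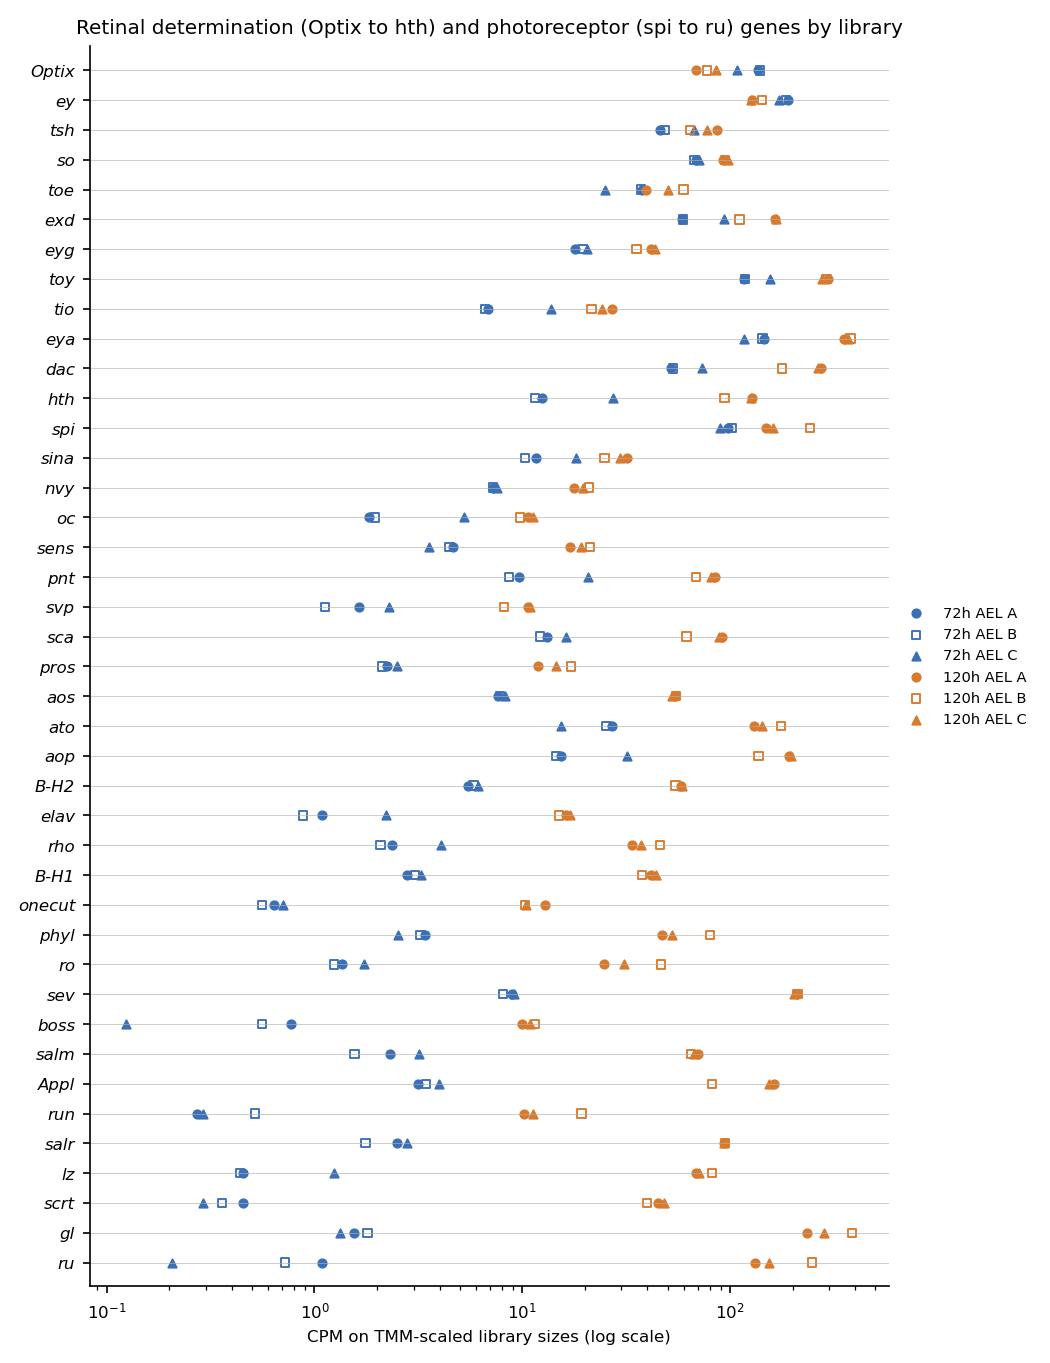
CPM of each retinal determination gene (*Optix* to *hth*) and each photoreceptor gene (*spi* to *ru*) in the 6 libraries, on a log axis, with blue symbols for 72h AEL and orange for 120h AEL and each block ordered by log2 fold change. The blue and orange symbols lie apart in every row but *tsh*, and the gap widens to 8.21 on the log2 scale for *ru*.

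Genes of photoreceptor differentiation gave the most uniform rise of the lists examined. All 29 genes were tested and all 29 were higher at 120h AEL, with log2 fold changes from 0.96 to 8.21, a median of 3.65 against 0.00 over all genes, and no overlap between the stages for any of them. Their summed level was 234 to 264 CPM in the early libraries and 2070 to 2370 CPM in the late ones. Without a single library, between 26 and 29 of them were still called, and all 29 were called after the coding length trend was taken out. In discs measured in bulk, more cells of a type and more RNA per cell cannot be told apart.

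The founder gene *ato*, which encodes the proneural protein of R8, was present at 72h AEL with 27.1, 25.4 and 15.3 CPM and reached 130, 176 and 143 CPM (log2 fold change 2.85 ± 0.31, adjusted p = 0.00215). Its partner in R8 differentiation, *sens*, rose by 2.23 ± 0.24. *gl* (BDGP6 3R, 18367927 to 18372738), a zinc finger gene needed by all photoreceptors behind the furrow, was close to absent early, with 1.55, 1.8 and 1.33 CPM, and had 235, 387 and 282 CPM late. This was a 201-fold difference of the stage means and a log2 fold change of 7.63 ± 0.38 (adjusted p = 0.000302). The rhomboid protease gene *ru* (BDGP6 3L, 1370628 to 1387437), which acts in the processing of EGF receptor ligands, went from 1.09, 0.719 and 0.207 to 131, 248 and 153 CPM (8.21 ± 0.76, adjusted p = 0.00132). For *gl* and *ru* the lowest late library stood more than 100 CPM above the highest early one.

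Genes that divide the photoreceptors into subtypes rose together. *lz*, a Runx gene of the R1, R6 and R7 precursors and the cone cells, had 0.455, 0.439 and 1.24 CPM early and 68.2, 81.5 and 70.7 CPM late (log2 fold change 6.52 ± 0.51, adjusted p = 0.000814). The spalt genes of R3, R4 and later R7 and R8 rose by 4.74 ± 0.29 (*salm*) and 5.27 ± 0.20 (*salr*). The Bar genes of R1 and R6 rose by 3.73 ± 0.19 (*B-H1*) and 3.27 ± 0.15 (*B-H2*), *ro* of R2 and R5 by 4.50 ± 0.40, and *svp* of R1, R3, R4 and R6 by 2.45 ± 0.38. *sev*, the receptor tyrosine kinase that specifies R7, went from 8.07 to 9.16 CPM early to 204 to 211 CPM late (4.56 ± 0.17, adjusted p = 0.000196), and its ligand gene *boss*, expressed by R8, from 0.124 to 0.773 CPM to 10 to 11.5 CPM (4.69 ± 0.73, adjusted p = 0.00598). Downstream of *sev*, *phyl* rose by 4.35 ± 0.35 and the more widely expressed *sina* by 0.98 ± 0.28. *pros*, a homeobox gene of R7 and cone cells, rose from 2.23, 2.12 and 2.49 to 11.9, 17.1 and 14.6 CPM (2.64 ± 0.29, adjusted p = 0.0021). The neural zinc finger gene *scrt* had 0.29 to 0.455 CPM early and 39.8 to 47.9 CPM late (6.94 ± 0.27, adjusted p = 0.000196).

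Proneural genes and the Notch pathway also pointed upwards. Of 18 genes measured, 16 passed the filter, and 14 of these rose and none fell (median log2 fold change 2.67). The *achaete-scute* complex gene *ac*, which founds bristle precursors, had 0.91, 1.12 and 1.12 CPM at 72h AEL and 26.6, 40.5 and 28.6 CPM at 120h AEL (4.90 ± 0.31, adjusted p = 0.000488), and its neighbour *sc* rose by 4.42 ± 0.32. Their antagonists rose less, *emc* by 1.49 ± 0.19 and *hry* (also called *hairy*) by 0.73 ± 0.15. All 7 of the *E(spl)* basic helix-loop-helix genes in the list, which are targets of Notch, rose by 1.36 to 4.79. *E(spl)mdelta-HLH*, the one with the largest change, went from 6.05, 6.11 and 4.77 to 110, 216 and 126 CPM (4.79 ± 0.42, adjusted p = 0.00113). *N* itself, the receptor, had 40.7, 39.4 and 85 CPM early and 401, 225 and 375 CPM late (2.42 ± 0.46, adjusted p = 0.0106), and its ligand gene *Ser* rose by 1.14 ± 0.31. The libraries of the stages did not overlap for any of the 16 genes, but *fng* (0.37 ± 0.18) and *insc* (1.05 ± 0.35) were not called.

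In the EGF receptor pathway, 17 of 20 genes rose and 1 fell (median log2 fold change 1.53). Among ligands and their processing enzymes, *spi* rose from 97.9, 102 and 89.5 to 149, 242 and 160 CPM (0.96 ± 0.27, adjusted p = 0.0317), the chaperone gene *S* by 2.41 ± 0.42 and the protease gene *rho* by 3.65 ± 0.36. *Egfr* itself had 57.5, 60 and 84.4 CPM early and 271, 192 and 260 CPM late (1.75 ± 0.27, adjusted p = 0.00566). Inside the cell, the core kinase cascade moved less (*Ras85D* 0.64 ± 0.15, *Raf* 1.13 ± 0.15, *Dsor1* 0.90 ± 0.21, *ksr* 0.91 ± 0.24). The nuclear effectors changed more, with 2.39 ± 0.39 for *pnt* and 2.91 ± 0.41 for *aop*. Negative feedback genes rose as well: *kek1* from 3.87, 3.99 and 9.58 to 105, 55.8 and 100 CPM (3.70 ± 0.54, adjusted p = 0.00505), *aos* by 2.75 ± 0.14 and *sty* by 2.16 ± 0.39. The gene that fell was *grk*, which encodes a ligand best known from the ovary and had at most 7.05 CPM in any library (−3.03 ± 0.42). The ligand gene *vn* did not separate the stages (5.05 to 7.54 CPM early, 6.45 to 6.61 late).

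Among 17 genes of Hedgehog, Dpp and Wingless signalling, 14 rose and none fell (median log2 fold change 1.44). *hh*, the furrow's driving ligand, went from 8.6, 8.35 and 13.9 to 56.4, 50.9 and 57.9 CPM, with a clear gap between the stages (2.31 ± 0.26, adjusted p = 0.00234). Its receptor gene *ptc* rose by 1.44 ± 0.19, *smo* by 1.22 ± 0.32 and the pathway's transcription factor gene *ci* by 0.94 ± 0.20. *dpp* did not follow *hh*, with 16, 16.4 and 26.4 CPM early and 26.7, 21.4 and 25.9 CPM late and overlapping libraries (0.21 ± 0.26, adjusted p = 0.525). The Dpp feedback inhibitor gene *Dad* likewise overlapped (0.03 ± 0.18, adjusted p = 0.901). By contrast, *brk*, which encodes a repressor of Dpp targets, rose from 13.5, 14 and 20.4 to 98.4, 88.1 and 107 CPM (2.52 ± 0.23, adjusted p = 0.0013), and the Dpp receptor gene *tkv* by 2.10 ± 0.47, which was no longer called without 120h AEL replicate C (adjusted p = 0.054). For Wingless, the co-receptor gene *arr* rose by 2.57 ± 0.32, the receptor genes *fz* and *fz2* by 2.07 ± 0.32 and 1.75 ± 0.44, and the feedback gene *nkd* by 1.90 ± 0.29. Without 120h AEL replicate A, or without C, 7 of the 17 genes were called, all higher.

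The antennal and head capsule list held 21 genes, of which 19 were tested, 14 rose and 1 fell (median log2 fold change 1.91). *Dll*, the selector of distal appendages, rose from 10.9, 11.1 and 14.5 to 63.7, 59 and 73.7 CPM (2.36 ± 0.20, adjusted p = 0.00106). Genes that pattern the antenna changed more: *ss* went from 1.48 to 3.44 CPM to 31.5 to 41.9 CPM (3.87 ± 0.40), *bab2* rose by 4.14 ± 0.30, and the paired genes *danr* and *dan* by 4.45 ± 0.29 and 3.75 ± 0.25. *ct*, another antennal homeobox gene, had 4.78, 4.15 and 11.7 CPM early and 54.7, 34 and 47.1 CPM late (2.49 ± 0.50, adjusted p = 0.012). In the posterior antennal compartment, *en* rose by 2.56 ± 0.19 and *inv* by 1.91 ± 0.18. The head Hox gene *Dfd*, of the maxillary part, rose by 2.08 ± 0.31. *Antp*, a Hox gene of the thorax that is kept off in the antenna, fell from 2.14, 2.44 and 6.05 to 0.463, 0.15 and 0.299 CPM (−3.72 ± 0.72, adjusted p = 0.0114). The fall of *Antp* was not called without 120h AEL replicate C, and its level in replicate B was at the floor of detection. Of the dorsal eye genes, only *ara* among the Iroquois genes was called (0.89 ± 0.17), and *caup* (−0.26 ± 0.14), *mirr* (0.57 ± 0.24) and *pnr* (0.50 ± 0.29) were not. *al*, an antennal and claw gene, had 38.3, 37.3 and 2.74 CPM at 72h AEL, so that replicate C stood apart, and 40 to 64.2 CPM at 120h AEL without a call (adjusted p = 0.312).

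Most neuronal genes that passed the filter rose. Of 22 genes measured, 15 were tested, and 12 rose and none fell (median log2 fold change 2.39). *CadN*, an adhesion gene of photoreceptor axons, had 2.46, 2.8 and 3.07 CPM early and 59.9, 46.7 and 52.5 CPM late (4.22 ± 0.21, adjusted p = 0.000296). The axonal microtubule gene *futsch* rose by 4.19 ± 0.25, *elav*, a marker of all neurons, by 3.35 ± 0.43, and *Fas2*, another axonal adhesion gene, from 21.9, 21.4 and 35.7 to 289, 146 and 281 CPM (3.06 ± 0.44, adjusted p = 0.00476). Guidance receptors moved with them, with 2.53 ± 0.27 for *fra*, 2.61 ± 0.43 for *robo1* and 2.85 ± 0.45 for *Lar*. Among synaptic vesicle and transmitter genes, *nSyb* rose from at most 1.99 CPM to at most 10.6 CPM (2.39 ± 0.33) and *brp* by 1.62 ± 0.32, *Syt1* and *Syn* overlapped between the stages, and *VGlut*, *ChAT*, *Snap25* and *Rab3* did not pass the filter.

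For glia and the blood-brain barrier, 20 of 22 genes were tested, 11 rose and 4 fell (median log2 fold change 0.80). *repo*, the marker of all lateral glia, had 11, 11.3 and 8.42 CPM early and 18.8, 19.1 and 18.1 CPM late (0.93 ± 0.21, adjusted p = 0.0173), and neither the fit without 120h AEL replicate A (adjusted p = 0.0691) nor that without C (0.0746) called it. *moody*, which encodes a receptor of barrier-forming glia, had 15.9, 17.5 and 13.8 CPM early and 17.9, 18.9 and 19.7 CPM late and was not called (0.30 ± 0.18, adjusted p = 0.215). The gap gene *hb* had 10 counts over the 3 early libraries and 9 over the 3 late ones and was not tested. Rises were larger for *Gli*, a septate junction gene (29.1, 30 and 57.7 to 259, 190 and 245 CPM, 2.41 ± 0.36, adjusted p = 0.00544), for *robo3* (3.91 ± 0.31) and for the FGF ligand genes *ths* and *pyr* (2.15 ± 0.24 and 1.13 ± 0.32), whereas their receptor gene *htl* overlapped. The 4 falls were *Mdr65* (−2.92 ± 0.40), *Gs2* (−2.69 ± 0.29), *Eaat1* (−2.80 ± 0.62) and *wrapper* (−1.13 ± 0.30), which encode a drug transporter, glutamine synthetase, a glutamate transporter and a glial surface protein. Many septate junction genes of this list, such as *cora*, are also used by the disc epithelium. Without 120h AEL replicate A, 6 genes of the list were called higher and 3 lower, and without C, 6 and 2.

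Genes of the adult eye's function were split. Of 23 phototransduction genes, 10 passed the filter, and 5 rose and 1 fell (median log2 fold change 0.79, and 0.00 after the coding length trend was taken out). The rhodopsin genes *ninaE*, *Rh2* and *Rh3* had at most 13 counts in either stage and were not tested. *inaC*, which encodes the eye protein kinase C, was the exception, with 0.273, 0.24 and 0.373 CPM early and 29.5, 30.1 and 26 CPM late (6.53 ± 0.30, adjusted p = 0.000279). *norpA*, the phospholipase C gene, rose by 2.21 ± 0.46 and *Galphaq* by 1.28 ± 0.29, and *Arr1* fell by 2.13 ± 0.55. The calls of *norpA* and *Galphaq* were lost without 120h AEL replicate C (adjusted p = 0.0504) and A (0.0612) in turn. Without A, or without C, 3 genes of the list were called, all higher. The fall of *Arr1* was therefore not called in those fits, nor was it with total counts.

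Eye pigment genes rose for some enzymes and transporters and fell for others. Of 23 genes, 20 were tested, 8 rose and 2 fell (median log2 fold change 0.49), with 5 and 2 called without 120h AEL replicate C. The transporter gene *w* went from 0.819, 1.12 and 0.415 to 39.4, 49.6 and 42.3 CPM (5.91 ± 0.44, adjusted p = 0.000732). *cn*, an enzyme gene of the brown ommochrome pathway, went from 0.182, 0.28 and 0.622 to 28.2, 37.8 and 31.7 CPM (6.32 ± 0.51, adjusted p = 0.000921). By contrast, *v*, which acts earlier in that pathway and is active in larval fat body, fell from 18.2, 17.6 and 27.4 to 0.347, 0.451 and 0.566 CPM (−5.63 ± 0.37, adjusted p = 0.000511). *Rab32*, a gene of pigment granule biogenesis, rose by 3.04 ± 0.19, and the pteridine enzyme gene *Pu* fell by 2.89 ± 0.46. The other 2 genes of the transporter family, *st* and *bw*, did not pass the filter.

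Ecdysone is the steroid whose pulses time the larval molts and the onset of metamorphosis. Of 22 tested genes of its response, 8 rose and 3 fell (median log2 fold change 0.52). The receptor gene *EcR* had 11.3, 11.9 and 22.3 CPM early and 71.6, 29 and 64.1 CPM late (1.70 ± 0.50, adjusted p = 0.038). Of the response's other transcription factor genes, *Eip74EF* and *Eip75B* rose by 2.15 ± 0.47 and 1.93 ± 0.33, while *Eip78C*, *Hr4* and *ftz-f1* overlapped between the stages and *Hr3* was not called (1.19 ± 0.64). Genes first found as ecdysone-inducible in discs changed most. *ImpE3* went from 3.46, 2.96 and 4.48 to 92.2, 242 and 127 CPM (5.33 ± 0.57, adjusted p = 0.00204), *ImpE1* rose by 4.43 ± 0.37 and *ImpE2* by 3.80 ± 0.58, and the protease gene *Sb*, needed for disc elongation, by 4.09 ± 0.51. For *ImpE1*, *ImpE2*, *ImpE3*, *Sb*, *Hr3* and *Hr4*, 120h AEL replicate B was the highest of the late libraries. *Cyp18a1*, which encodes an ecdysone-inactivating enzyme, fell from 21.5, 20.7 and 22.5 to 0.925, 3.06 and 1.4 CPM (−3.62 ± 0.54, adjusted p = 0.00533).

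Of 16 heat shock and chaperone genes, 5 rose and 8 fell (median log2 fold change −0.64). The rises held 4 genes of the small heat shock cluster on 3L, which is known to respond to ecdysone. *Hsp67Ba* had 3.46, 2.72 and 3.73 CPM early and 242, 252 and 263 CPM late (6.22 ± 0.21, adjusted p = 0.000183), and *Hsp23*, *Hsp27* and *Hsp67Bc* rose by 3.28 ± 0.24, 2.99 ± 0.19 and 2.53 ± 0.30. *Hsp26* of the same cluster overlapped (−0.10 ± 0.26), and *Hsp22* fell (−1.34 ± 0.39). *CG4456*, which lies in that cluster and overlaps *Hsp22* in the annotation, so that their counts are uncertain where reads are shared, had the largest fall of the list, from 8.14, 9.19 and 34.6 to 5.78, 1.65 and 4.49 CPM (−2.43 ± 0.75, adjusted p = 0.0425). It was not called without 72h AEL replicate C or without any one 120h AEL library (adjusted p = 0.0725 to 0.234). The stress-inducible *Hsp68* fell from 264, 251 and 272 to 71.6, 49.7 and 78 CPM (−1.99 ± 0.23, adjusted p = 0.0025), *Hsp70Ab* and *Hsp70Ba*, near-identical copies whose reads cannot be assigned with certainty, by 1.25 ± 0.31 and 1.24 ± 0.34, and the mitochondrial chaperone gene *Hsp60A* by 1.10 ± 0.30. The falls depended on scale and library, with 1 called under total counts, 1 without 72h AEL replicate C, and 3 and 1 without 120h AEL replicates A and C.

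**Figure D3:**
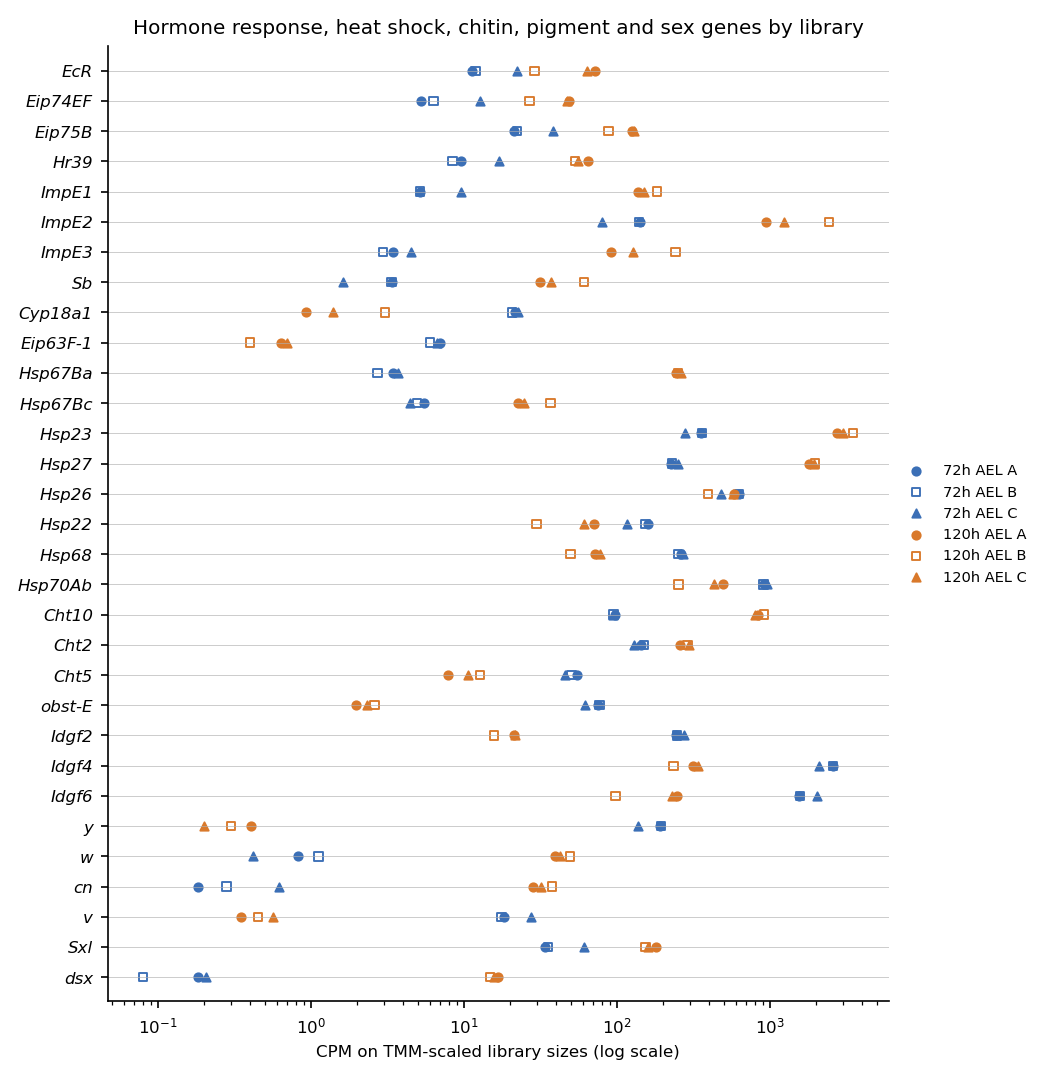
CPM in the 6 libraries, on a log axis, of genes of the ecdysone response, heat shock, chitin, body and eye pigment and sex determination, with blue symbols for 72h AEL and orange for 120h AEL. *EcR* to *Sb* and *Hsp67Ba* to *Hsp27* lie to the right at 120h AEL, and *Hsp26* overlaps. The 120h AEL symbols of *y*, at 0.2 to 0.405 CPM, lie far to the left of its 72h AEL symbols.

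Most listed genes of energy metabolism fell. All 30 nuclear genes of the respiratory chain were lower at 120h AEL, with log2 fold changes from −2.14 to −0.82 and a median of −1.59, and their summed level went from 21100 to 24900 CPM to 6700 to 7550 CPM. Examples from separate complexes are *ND-75* of complex I (317, 310 and 306 to 125, 92.2 and 132 CPM, −1.41 ± 0.21, adjusted p = 0.00502), *RFeSP* of complex III (564, 558 and 445 to 93.1, 132 and 118 CPM, −2.14 ± 0.23, adjusted p = 0.00192), *COX4* of complex IV (−1.66 ± 0.21) and *blw*, the alpha subunit of ATP synthase (−1.90 ± 0.24). None of the 30 overlapped between the stages. Between 27 and 30 remained called without any single library, and 29 were called with total counts.

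In the citric acid cycle, 12 of 13 genes fell (median log2 fold change −1.61). *Mdh2*, the mitochondrial malate dehydrogenase gene, went from 963, 960 and 727 to 140, 170 and 168 CPM (−2.41 ± 0.21, adjusted p = 0.00114), the citrate synthase gene *kdn* fell by 1.99 ± 0.25 and the aconitase gene *mAcon1* by 1.78 ± 0.28. *Idh* was not called (−0.39 ± 0.18). With total counts the number of falls was 6. In glycolysis, 9 of 12 genes fell (median −1.17), and 5 with total counts. *Ldh*, which makes lactate, went from 655, 647 and 669 to 55.5, 40.2 and 57.9 CPM, with narrow spread in both stages (−3.69 ± 0.23, adjusted p = 0.000449). *Gapdh1* fell by 2.35 ± 0.23 and *Pglym78* by 2.23 ± 0.20, and *Hex-C*, the hexokinase gene of fat body and gut, by 8.49 ± 0.54. The hexokinase gene of most tissues, *Hex-A*, overlapped between the stages (27.4 to 50 CPM early, 32.1 to 66.8 late). None of the 13 respiratory chain and ATP synthase genes of the mitochondrial genome, which were looked at after their values had been seen, was called (median 0.34).

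**Figure D4:**
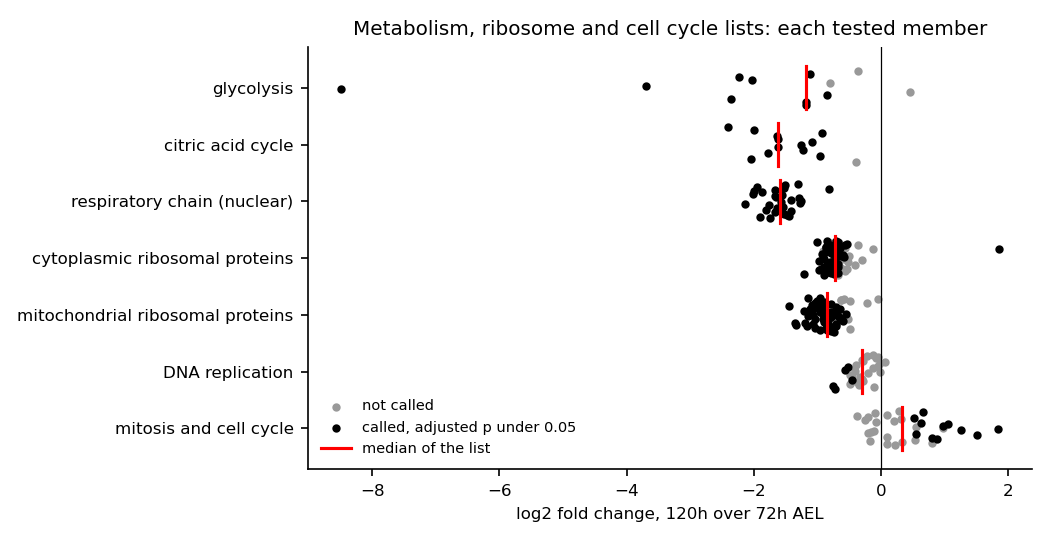
Log2 fold change (120h over 72h AEL) of each tested member of the metabolism, ribosome and cell cycle lists, black where the adjusted p-value is under 0.05 and grey otherwise, with red bars at list medians. Medians run from −1.61 for the citric acid cycle to 0.33 for mitosis and cell cycle, and the points at −8.49 and 1.86 are *Hex-C* and *RpS5b*.

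Ribosomal protein genes were lower at 120h AEL by a smaller and less stable margin. Of 85 cytoplasmic genes, 79 were tested, 52 fell and 1 rose (median log2 fold change −0.72). *RpL3* had 10100, 10000 and 7710 CPM early and 3940, 4930 and 4640 CPM late (−0.98 ± 0.20, adjusted p = 0.0122), and *RpLP1* fell by 1.21 ± 0.27. The gene that rose was *RpS5b*, a paralog known from the germline, with at most 2.84 CPM early and 7.37 to 9.62 CPM late (1.86 ± 0.35). This rise was not called without 120h AEL replicate C. As a share of all counts, without scaling, the 85 genes took 21.5%, 21.5% and 21.7% in the early libraries and 17.1%, 21.3% and 19.8% in the late ones, all within 17.1% to 21.7%. With total counts, 2 genes fell and the median was −0.13. Without 72h AEL replicate C, 27 fell, and without 120h AEL replicates A and C, 4 and none.

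All 70 mitochondrial ribosomal protein genes were tested, and 57 fell and none rose (median −0.85), with 11 falls under total counts and 27 and 21 falls without 120h AEL replicates A and C. *mRpL35* went from 87.3, 86.5 and 67.1 to 22.8, 36.4 and 25.7 CPM (−1.45 ± 0.25, adjusted p = 0.008). Of 31 aminoacyl-tRNA synthetase genes, 16 fell and 2 rose (median −0.47, which flips to 0.12 with total counts). *HisRS* fell from 243, 247 and 230 to 108, 106 and 116 CPM (−1.11 ± 0.14, adjusted p = 0.00321). The rises were 2 mitochondrial enzymes, *AspRS-m* and *ValRS-m* (0.70 ± 0.21 and 0.89 ± 0.25). Neither rise was called once the coding length trend was taken out (0.33 for *ValRS-m*, adjusted p = 0.313), where 22 genes of the list fell. The number of calls was 5 and 3, all lower, without 120h AEL replicates A and C, and 12 without 72h AEL replicate C (2 higher and 10 lower). Of 34 proteasome subunit genes, 1 was called, *Rpn13R* (1.12 ± 0.37, adjusted p = 0.0496, lost without any library other than 72h AEL B), and the median of −0.28 flips to 0.32 with total counts. DESeq2 called 2 of them higher and 14 lower.

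Cell cycle genes did not move as a block. Of 28 DNA replication genes, 27 had log2 fold changes below 0 under TMM (median −0.30), but only 5 were called lower, and the median flips to 0.30 with total counts. *PCNA*, the sliding clamp, had 592, 585 and 468 CPM early and 294, 331 and 309 CPM late (−0.76 ± 0.18, adjusted p = 0.0215). The licensing factor gene *dup* fell by 0.72 ± 0.20, *Fen1*, *RfC38* and *Orc2* had values of −0.57 ± 0.18, −0.51 ± 0.14 and −0.46 ± 0.13, and with total counts *Fen1* and *RfC38* flip to 0.04 and 0.09. Without 120h AEL replicate A, 1 of the 28 was called, and without C none, whereas 17 were called lower once the coding length trend was taken out.

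Of 32 mitosis and cell cycle genes, 11 rose and none fell (median 0.33). *stg*, the Cdc25 phosphatase gene that triggers mitosis, went from 103, 100 and 105 to 264, 334 and 285 CPM (1.51 ± 0.18, adjusted p = 0.00294). *dap*, which encodes a cyclin-dependent kinase inhibitor of cells leaving the cycle, rose by 1.85 ± 0.24 and *CycD* by 1.26 ± 0.19. *CycE*, the S phase cyclin gene, had 14.2, 15.2 and 29.9 CPM early and 47.1, 34.7 and 49.1 CPM late and was not called (0.97 ± 0.35, adjusted p = 0.0668). *Cdk1*, *polo* and *aurA* overlapped between the stages. The number of rises was 3 and 4 without 120h AEL replicates A and C, and 19 with total counts. Once the coding length trend was taken out, 8 rose and 4 fell, with a median of 0.10.

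Cell death genes changed in both directions. Of 13 tested genes, 6 rose and 2 fell (median 0.50), and without 120h AEL replicate C, 2 and 1. The death activators split: *rpr* fell from 21.7, 22.6 and 21.9 to 5.96, 7.36 and 5.32 CPM (−1.83 ± 0.22, adjusted p = 0.00292), and *hid* rose from 1.91, 1.76 and 4.77 to 18.3, 15.3 and 21.1 CPM (2.48 ± 0.48, adjusted p = 0.0116). Among effectors and their inhibitor, the adaptor gene *Dark* rose by 1.16 ± 0.15, or 0.31 and without a call once the length trend was taken out, and *Diap1* by 0.95 ± 0.22, which was not called without 72h AEL replicate C (adjusted p = 0.0718) or 120h AEL replicate C (0.0688).

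Genes of the apical matrix and chitin changed in both directions. Of 19 imaginal disc growth factor and chitin genes, 5 rose and 12 fell (median −1.46). All 6 of the *Idgf* genes, secreted chitinase-like factors also made by fat body and hemocytes, fell. *Idgf2* went from 244, 247 and 276 to 21.4, 15.8 and 21.7 CPM (−3.73 ± 0.20, adjusted p = 0.000355), and *Idgf6* fell by 3.23 ± 0.44. The chitinase genes went different ways, with *Cht10* rising from 96.9, 94.8 and 94.5 to 835, 914 and 795 CPM (3.16 ± 0.19, adjusted p = 0.000449) and *Cht5* falling by 2.24 ± 0.25. The chitin-binding gene *obst-E* fell by 4.91 ± 0.21. Of 12 tested genes in the list of ZP-domain and apical matrix genes, 5 rose and 4 fell. The rises included *nyo* (4.24 ± 0.35) and *neo* (2.15 ± 0.13). They also included *trn* (2.31 ± 0.16), which encodes a cell surface protein without a ZP domain. *y* (BDGP6 X, 356509 to 361245), needed for black cuticle pigment, fell from 191, 194 and 137 to 0.405, 0.301 and 0.2 CPM (−9.06 ± 0.34, adjusted p = 0.000196).

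Large falls were found in the lists of cuticle, digestive and muscle genes. Among cuticle proteins, of 69 tested Cpr genes, 58 fell and 4 rose (median −7.62), and all 20 tested Tweedle genes fell (median −8.75). The summed level of Cpr genes went from 25700 to 30700 CPM to 419 to 728 CPM, and that of Tweedle genes from 3410 to 4310 CPM to 23.9 to 34.1 CPM. *Ccp84Ad*, for example, went from 2940, 2930 and 2900 to 1.91, 4.31 and 4.76 CPM (−9.64 ± 0.53, adjusted p = 0.000361). The 4 Cpr genes that rose were *Cpr92A* (6.54 ± 0.68, to 13.2 to 17.4 CPM), *Cpr72Ea* (5.20 ± 0.90), *Cpr12A* (3.54 ± 0.42) and *Cpr78E* (2.34 ± 0.64).

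Muscle genes fell from a summed 20700 to 25900 CPM to 953 to 1710 CPM, with 19 of 23 called lower (median −4.03). *Mlc2*, a myosin light chain, went from 4700, 4700 and 4600 to 176, 60.2 and 165 CPM (−5.12 ± 0.52, adjusted p = 0.00177), and *Mhc* fell by 5.02 ± 0.67. The myogenic factor gene *Mef2* overlapped between the stages (18.7 to 33.4 CPM early, 21.2 to 29.9 late). Digestive enzymes fell too: 6 of 7 tested midgut genes (median −8.73) and all 10 tested Jonah proteases (median −7.12). The early levels of these lists were far higher in 72h AEL replicates A and B than in C. Replicate C still lay above the late libraries in both lists. Its summed midgut level was 255 CPM against 11.5 to 16.5 late, and its Jonah level 1110 CPM against 25.1 to 71.6. *betaTry* had 13300, 13300 and 114 CPM early and 2.11, 7.51 and 5.16 CPM late (−10.41 ± 2.14, adjusted p = 0.0132), and was not called in the absence of 120h AEL replicate C (adjusted p = 0.0549). Between 1 and 3 midgut genes were called without any one 120h AEL library, and 7 without 72h AEL replicate C. Counts within the trypsin, Jonah, actin and glue families are uncertain gene by gene, since reads may match near-identical copies.

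The salivary gland list, whose 15 tested members were all called, held rises and falls. The *ng* genes, a family of early salivary gland products near *Sgs4*, fell, *ng2* from 4060, 4040 and 1420 to 0.231, 2.4 and 0.898 CPM (−11.22 ± 1.27, adjusted p = 0.00233), and so did *Pig1* (−9.00 ± 0.99) and the gland's transcription factor genes *sage* and *fkh* (−2.26 ± 0.44 and −3.22 ± 0.58). The glue genes, made by glands late in the third instar, rose: *Sgs3* had 0.364, 0.2 and 0.166 CPM early and 109, 64.4 and 82 CPM late (8.49 ± 0.43, adjusted p = 0.000302). Without 120h AEL replicate C the calls were 8 higher and 6 lower.

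Fat body genes depended on single libraries. Of 8 tested, 3 rose and 2 fell. *Lsp2* had 0.682, 0.439 and 0.829 CPM early and 865, 22.1 and 766 CPM late, so that replicate B of 120h AEL lay far below the other late libraries. Its log2 fold change was 9.66 ± 2.05 (adjusted p = 0.0146), and 10.24 without that replicate (adjusted p = 0.00151). *Fbp1* and *Fbp2* showed the same spread (9.18 ± 1.99 and 8.81 ± 1.93). The calls of these 3 genes were lost when replicate C of 72h AEL was left out (adjusted p = 0.0538 to 0.0617), which leaves 1 early sample that is assumed to vary like the late ones. *Adh* fell by 5.12 ± 0.93. Of 14 tested hemocyte genes, 9 overlapped between the stages, 2 rose and 1 fell, and *Hml*, their defining marker, had 191, 192 and 846 CPM early and 361, 63.7 and 300 CPM late. Without 120h AEL replicate B, 4 hemocyte genes were called higher and 3 lower, and without A or C, none and 1.

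Of 14 brain neuroblast and neuropeptide genes 6 were tested, 2 rose and 2 fell, and the summed level was 159 to 329 CPM early and 81.8 to 90.5 CPM late. The rises were *pros*, given above, and *dpn*, a neuroblast gene that is also in the glial list (1.88 ± 0.28). The falls were the peptide genes *Akh* and *Dh31*, and neither was called without 120h AEL replicate A or without C. *Akh*, the adipokinetic hormone gene of the corpora cardiaca, was the most abundant of the list early, with 112, 111 and 293 CPM against 22.9, 0.802 and 18.7 CPM late (−3.83 ± 1.22, adjusted p = 0.0458). This fall did not pass the threshold once 72h AEL replicate C was left out (adjusted p = 0.123), nor with 120h AEL replicate A (0.0876) or C (0.114) left out. The peptide genes *Pdf*, *Crz* and *Mip* had at most 130 counts per stage and did not pass the filter. Of the tracheal list, 6 of 7 genes were tested, 3 rose and 1 fell (summed 478 to 534 CPM early, 562 to 776 late). *uif*, an apical membrane gene, rose from 116, 117 and 169 to 510, 273 and 479 CPM (1.56 ± 0.36, adjusted p = 0.019) and the chitin-binding gene *Gasp* fell by 0.59 ± 0.15, and both lost their calls without 120h AEL replicate A or C, *Gasp* also without 72h AEL replicate C. Once the coding length trend was taken out, neither was called (0.15 for *uif*, adjusted p = 0.531, and −0.38 for *Gasp*, adjusted p = 0.0505). With total counts, *Gasp* changed by −0.01. *trh*, the defining tracheal gene, did not pass the filter. Of 15 male germline genes, 2 were tested and none was called. Together, the midgut, Jonah, Cpr, Tweedle, salivary gland and muscle lists took 7.87%, 7.85% and 5.24% of the counts of 72h AEL A, B and C, and 0.232% to 0.315% in the late libraries. The part of these tissues in the other results was not tested, beyond the fits without single libraries.

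**Figure D5:**
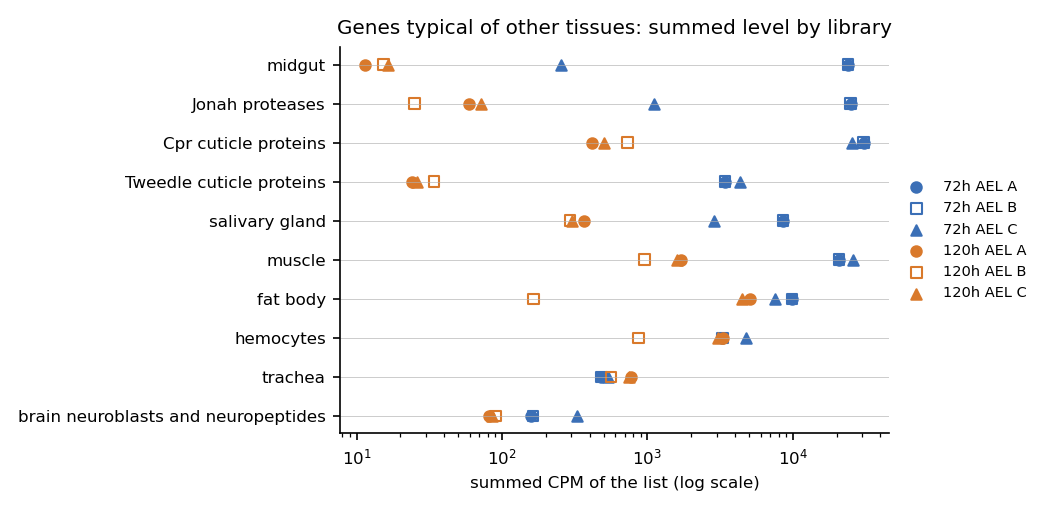
Summed CPM of lists of genes typical of other tissues in each of the 6 libraries, on a log axis, with blue symbols for 72h AEL and orange for 120h AEL. Midgut and Jonah genes of 72h AEL replicate C (255 and 1110 CPM) lie far below A and B, and fat body genes of 120h AEL replicate B (165 CPM) far below A and C.

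The 10 largest rises included 3 fat body genes, *Lsp2*, *Fbp1* and *Fbp2*, described above. *Sgs5bis* (BDGP6 3R, 17594386 to 17595057) had no count at 72h AEL and 30.5, 26.4 and 27.2 CPM at 120h AEL, at least 222-fold higher against a floor of 3 counts per library. *Sgs5*, its near copy, had 1 early count and 3322 late ones, a ratio of 2796 after scaling (95% counting interval 501 to 110462). With 2 early counts each, *Eig71Ee* and *CG6280* gave ratios of 1366 (378 to 11284) and 452 (125 to 3740). *Osi4* and *ninaB*, an enzyme gene of vitamin A formation, had 1 early count each and ratios of 1137 (204 to 44942) and 768 (137 to 30349). *CG5653* went from 0, 0.0799 and 0.124 to 52.4, 80.3 and 56.6 CPM (9.69 ± 0.50). These intervals cover counting error only.

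Among the 10 largest falls, *CG34281* (BDGP6 3R, 17612887 to 17613404) and *ng4* had no count at 120h AEL and were at least 296-fold and 168-fold lower. *CG14568* and *Cpr64Ab* had 1 late count each, with ratios of 8498 (1525 to 335700) and 6837 (1227 to 270090). *CG32237*, which took the largest share of counts in 72h AEL replicate C (1.01%), went from 4500, 4490 and 11500 to 0.376, 2.25 and 1.33 CPM (−12.59 ± 1.09, adjusted p = 0.00108). The cuticle genes *TwdlC* and *Ccp84Af* had log2 fold changes of −12.46 ± 0.95 and −12.24 ± 0.94, and *CG4229*, *CG43182* and *CG17290*, known here by number only, −12.44 ± 1.05, −12.02 ± 0.44 and −12.02 ± 0.59.

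Sex differs between the groups, so genes of sex determination and dosage compensation were read separately. Of 15 genes, 8 rose and none fell (median log2 fold change 0.80), and 4 and 3 rose without 120h AEL replicates A and C. *Sxl*, whose protein is made in females, went from 33.9, 35.6 and 61.4 to 181, 154 and 160 CPM (1.78 ± 0.29, adjusted p = 0.00676). *dsx* had 0.182, 0.0799 and 0.207 CPM early and 16.7, 14.8 and 15.8 CPM late (6.58 ± 0.36, adjusted p = 0.000361), and counts on the coding sequence do not separate its male and female isoforms. *tra* rose by 0.87 ± 0.27 but lost its call without 72h AEL replicate C (adjusted p = 0.152), 120h AEL A (0.0586) or 120h AEL C (0.0963). Of the male-specific lethal genes, *msl-3* and *mle* rose by 0.87 ± 0.20 and 0.89 ± 0.15, the latter by 0.09 and without a call once the length trend was taken out, and *msl-1* and *msl-2* were not called (1.12 ± 0.38 and 0.80 ± 0.29).

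X-linked genes had a median log2 fold change of 0.14 against −0.03 for autosomal genes, a difference of 0.17. Of 1445 X-linked genes, 27.7% rose and 24.8% fell, and of 7459 autosomal genes on the major arms and chromosome 4, 23.2% and 29.9%. Chromosome 4 stood further out, with 34 of 72 genes higher, 10 lower and a median of 0.73. Its genes are long, with a median coding length of 2500.5 bp against 1272 to 1443 bp on the other arms, and its median was 0.26 after the length trend was taken out, against 0.03 for X and −0.15 to −0.10 for the major autosomal arms. *toy* and *ci*, which rose, and *ey*, which fell, lie on chromosome 4.

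Over all tested genes, fold change also went with coding length, and the cause of this was not tested. In 6 classes of coding length, the median log2 fold change ran from −0.62 in the shortest genes (up to 600 bp, with 107 higher and 680 lower of 1523) to 0.78 in the longest (2841 bp and over, with 818 higher and 146 lower of 1519). Once the trend was taken out of each library, class medians ran from −0.21 to −0.02 and 4901 genes were called, 3978 of them also called before, with 1925 higher and 2976 lower. The photoreceptor (29 higher), respiratory chain (30 lower) and Tweedle (20 lower) counts did not change with this step. The ribosomal lists came closer to 0 (median −0.39 for cytoplasmic and −0.55 for mitochondrial genes), and Hedgehog, Dpp and Wingless genes went from a median of 1.44 to 0.75, with 12 called.

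The authors grouped 8836 genes into 13 clusters by their counts in the libraries of all 3 stages, so a cluster's change between these stages is not independent evidence. In cluster 1, 670 of 692 tested genes fell (median −7.47), and in clusters 2 and 3, 585 of 651 (median −3.54) and 466 of 515 (median −1.79). Genes of cluster 1 held 24.2%, 24.2% and 12.5% of the counts in 72h AEL A, B and C, and 0.122% to 0.164% in the late libraries. Cluster 13 held the steepest rises (282 of 316 tested genes, median 3.45), followed by cluster 12 (323 of 332, median 2.08) and cluster 10 (796 of 926, median 1.28, with 433 and 372 called without 120h AEL replicates A and C). *gl*, *ru*, *lz*, *w*, *dsx* and the glue genes are in cluster 13, *ato*, *hth*, *hh* and *brk* in cluster 12, *eya*, *toy*, *N* and *Egfr* in cluster 10, and *y*, *Adh*, *Hex-C* and the trypsin genes in cluster 1. Clusters 5 and 6 had the smallest shares of called genes, with 8 higher and 21 lower of 281 genes and 115 lower of 1339.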

How the data were processed

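The authors aligned single-end reads (Bowtie2) against FlyBase r5.55, keeping 1 coding sequence per gene, the longest, and the deposited values are raw counts per gene from SAMtools 0.1.19, without normalization and without strand. Of 13676 genes in the table, 13406 were named with BDGP6, whose coordinates played no part in counting. Here 72h AEL replicates A and B were summed, and 2 early and 3 late samples were compared with edgeR 4.0.16 (R 4.3.3; TMM, quasi-likelihood test, Benjamini-Hochberg adjustment over all genes tested). As in HTSFilter, genes at or below 125.6 normalized counts in every sample were left out. The SE follows from the fold change and the F statistic (log2 change over the root of F). At 72h AEL, A and B were averaged before the mean with C. A gene called higher or lower has an adjusted p-value under 0.05. The fit was tested on simulated data with few changed genes, a common spread for all genes and no coding length trend. Those settings differ from these data, so the test does not cover their error rates. The authors' clusters were used as deposited, and the 96h AEL libraries only in 1 alternative. Alternatives were DESeq2 1.42.0, other scalings, filters and thresholds, and each library left out. The coding length trend, taken out per library as an offset, was one of them.

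Members and gene lists were chosen with earlier results of these data known. Genes named are the 10 largest rises and falls (at least 10 CPM on average where higher, stages not overlapping), up to 4 called genes per list by size of change, those the study names, and the leading and defining genes of other tissues. Other list members named were chosen after their values were seen. The rule takes in more genes than the text describes, and counts of lost calls cover all of them. One gene the study names is not reported here. Per-sample columns that match no sample numbered 0. Nothing states that replicates are separate collections beyond the label of biological replicates, so p-values measure the spread between these samples.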

Additional observations from a re-analysis of the deposited data

How the results depend on the processing

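The called count of 4828 genes was 2312 at an adjusted p-value under 0.01, 2879 and 2517 without 120h AEL replicates A and C, and 2517 to 4989 over all fits without 1 library. The count with more than 2-fold change, 3380, was 2150 at an adjusted p-value under 0.01 and 2383 to 3706 without 1 library. All other alternatives left both within 1.5 times: DESeq2 gave 5725 calls, no filter 5095 of 13528 genes, and total counts 5754 with 4086 higher and 1668 lower. The correlation of deviations between same-lettered libraries of the stages was −0.21 for A, 0.20 for B and 0.13 for C. Since 72h AEL A and B are near-duplicates, these correlations cannot show whether the letters pair the libraries. With the letter as a block and 72h AEL A and B kept separate, 5613 genes were called (2711 higher, 2902 lower), and 5570 with the length trend also taken out, an alternative chosen after seeing the data. Of the named genes, 3 reversed, all with total counts: *Fen1* (0.04), *RfC38* (0.09) and *ey* (0.14). Named genes that lost their call numbered 33 and 22 without 120h AEL replicates C and A, 14 without 72h AEL replicate C and 12 with total counts beside the 3 that reversed there. The cause of these differences was not tested.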

Other observations

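Some gene families outside the lists were looked at after their values had been seen. The 13 protein genes of the mitochondrial genome overlapped between the stages and none was called, in contrast to the nuclear genes of the respiratory chain. Replicate B of 120h AEL was the highest library for all 13, with a summed 76600 CPM against 28400 and 15400 in A and C and 29800 to 38100 at 72h AEL. The *Osiris* genes, a clustered family of genes tied to secretion of cuticle, gave 11 tested members of 22. *Osi4* and *Osi24* rose and the other 9 fell (median log2 fold change −5.44), and the summed level went from 445 to 499 CPM to 50.5 to 60.3 CPM.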
